A study of Homo sapiens with 13 samples.

Results

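The receptors of the ERBB family and the EGF-like ligands that bind them were followed through a sorafenib-resistant cell line and the liver cancer line HepG2 on 13 Affymetrix whole-transcript arrays. The 10 genes were the receptors EGFR, ERBB2, ERBB3 and ERBB4 and the ligands EREG, AREG, EPGN, TGFA, HBEGF and BTC. They were chosen by symbol, from rows whose array annotation gives that symbol alone. Of the 10, 9 were measured, each by 1 row, among 18377 genes in all. AREG, the amphiregulin gene, is not analysed here. HepG2 is a line from a human hepatoblastoma. HepG2S1 is, by the labels, a line selected from it by stepwise increases of sorafenib, a drug that inhibits RAF, VEGF receptor and other kinases, over several months. The 4 groups were HepG2S1 cells withdrawn from sorafenib at 20% O2 (n = 3), HepG2S1 cells with 6 µM sorafenib at 2% O2 (n = 3), HepG2S1 cells with 6 µM sorafenib at 20% O2 (n = 4) and untreated HepG2 cells at 20% O2 (n = 3). Each flask was kept for 72 h in the same serum-containing medium with insulin and dexamethasone. The RNA values go against a hepatocyte-like identity of HepG2S1, as given with the markers further on, and its origin from HepG2 was not tested. HepG2S1 stands for 1 selected line, so that the comparison with HepG2 is between lines as well as between drug exposures, and the labels name no vehicle for the flasks without drug.

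ERBB receptors are membrane tyrosine kinases that pair with each other when a ligand binds. EGFR binds EGF, TGFA, HBEGF, BTC, EREG, EPGN and AREG, ERBB3 and ERBB4 bind neuregulins, ERBB2 has no known ligand and acts as a partner, and ERBB3 has little kinase activity of its own and recruits PI3 kinase. The ligands are made as membrane precursors that metalloproteases release, and the receptors feed the RAS, RAF, MEK and ERK cascade in which the RAF kinases are targets of sorafenib. In liver, hepatocytes express EGFR and ERBB3, and EGFR ligands take part in regeneration.

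The genes of EPGN, EREG, AREG and BTC lie next to each other in this order on chromosome 4, EGFR lies on chromosome 7, ERBB2 on 17, ERBB3 on 12, ERBB4 and TGFA on 2, and HBEGF on 5. The promoters of EPGN, EREG and BTC are shown because EPGN and EREG rose on drug withdrawal while BTC was not called, and that of EGFR because the gene was higher in every HepG2S1 group than in HepG2. Each sequence is RefSeq's on GRCh38.p14 and holds 300 bases, the last 50 of them after the gene's start, at chr4:74308220-74308519 (plus strand) for EPGN, chr4:74364895-74365194 (plus strand) for EREG, chr4:74794474-74794773 (minus strand) for BTC and chr7:55018767-55019066 (plus strand) for EGFR. Capitals mark matches to the motifs searched.
EPGN: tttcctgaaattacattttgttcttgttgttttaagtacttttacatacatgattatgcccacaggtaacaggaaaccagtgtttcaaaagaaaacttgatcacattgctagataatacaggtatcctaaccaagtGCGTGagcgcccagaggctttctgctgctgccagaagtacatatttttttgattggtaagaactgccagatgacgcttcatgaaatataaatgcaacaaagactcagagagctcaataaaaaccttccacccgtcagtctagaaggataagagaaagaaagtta
EREG: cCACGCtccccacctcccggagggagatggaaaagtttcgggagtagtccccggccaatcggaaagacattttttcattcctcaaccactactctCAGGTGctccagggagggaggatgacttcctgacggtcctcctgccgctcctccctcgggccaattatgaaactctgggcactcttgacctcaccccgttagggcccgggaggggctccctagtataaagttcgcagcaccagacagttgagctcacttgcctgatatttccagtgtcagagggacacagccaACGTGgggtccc
BTC: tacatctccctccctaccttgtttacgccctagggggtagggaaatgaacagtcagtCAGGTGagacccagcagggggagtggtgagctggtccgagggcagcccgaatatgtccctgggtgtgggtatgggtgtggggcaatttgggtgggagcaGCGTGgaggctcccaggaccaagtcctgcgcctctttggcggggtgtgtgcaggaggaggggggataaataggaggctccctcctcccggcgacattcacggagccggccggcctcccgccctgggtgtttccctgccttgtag
EGFR: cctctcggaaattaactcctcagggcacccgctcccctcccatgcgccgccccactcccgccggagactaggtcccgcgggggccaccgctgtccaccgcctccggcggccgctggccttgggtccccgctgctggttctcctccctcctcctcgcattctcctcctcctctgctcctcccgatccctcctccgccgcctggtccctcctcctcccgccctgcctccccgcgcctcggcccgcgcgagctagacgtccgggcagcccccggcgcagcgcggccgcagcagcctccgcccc
4 motifs, chosen with the values known, were searched on both strands: the AP-1 site TGANTCA, the core of the hypoxia response element as ACGTG or GCGTG, the E-box CAGGTG and the cAMP response element TGACGTCA. Among 35116 RefSeq promoters of this length, 7.71% held the AP-1 site, 48.4% a hypoxia core, 20.6% the E-box and 1.85% the cAMP element. EPGN held 1 hypoxia core, at position -114 from the start. EREG held 2 hypoxia cores and an E-box, and BTC held 1 hypoxia core and an E-box, and these 3 neighbours thus each had the commonest of the 4 motifs. The EGFR promoter shown held none of the 4. A downstream EGFR promoter at chr7:55109589-55109888 held 2 AP-1 sites. The promoters differed in base composition, with 37.7% G and C in EPGN, 57.7% in EREG, 63.0% in BTC and 75.3% in the EGFR promoter shown. These matches describe letters in a window and show no binding.

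Values are log2 expression after RMA, on which a difference of 1 is a 2-fold change, and differences are given as the mean ± SE of the limma fit. Array medians lay between 7.30 and 7.42, and Pearson's r over all rows was 0.995 to 0.998 between arrays of a group. It was 0.991 to 0.996 between HepG2S1 groups, and 0.913 to 0.923 between HepG2S1 and HepG2. The line label was checked with hepatocyte markers, of which 9 of 11 were measured. The HepG2S1 arrays went against it: all 9 were lower in HepG2S1 with sorafenib at 20% O2 than in HepG2, with a median log2 difference of -7.33. Their summed log2 level per array was 54.9 to 55.7 in withdrawn cells, 54.7 to 55.2 at 2% O2, 55.4 to 56.0 with sorafenib at 20% O2 and 111 to 112 in HepG2. ALB, AFP and FGB were below the lower quartile of all rows, 5.76, in every HepG2S1 group. The fibroblast-type matrix genes DCN and LUM were higher by 5.43 ± 0.07 and 5.01 ± 0.14 in HepG2S1 with sorafenib at 20% O2 than in HepG2, while the other 6 of 8 fibroblast markers were not called. All 5 simple epithelial markers were lower, with a median of -4.22. Of 4 measured squamous epithelial markers, KRT5 was higher by 1.00 ± 0.06 and SFN by 1.60 ± 0.07, while KRT14 and IVL were not called. Of 4 endothelial markers 3 fell, and of 4 leukocyte markers 1 rose and 1 fell. Over all genes 30.1% rose and 27.2% fell in this comparison. By these markers HepG2S1 does not resemble HepG2. Where a gene is said to rise, fall or move against HepG2, it was higher or lower in the cells labelled HepG2S1. A change of state within cells derived from HepG2 and an origin from other cells, by a mix-up or contamination, cannot be told apart with these values, so that every difference from HepG2 given here is one between the cells labelled HepG2S1 and HepG2. The part of these marker differences in the receptor and ligand values was not tested, and in bulk RNA fewer cells of a type and less RNA per cell cannot be told apart.

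**Figure D1:**
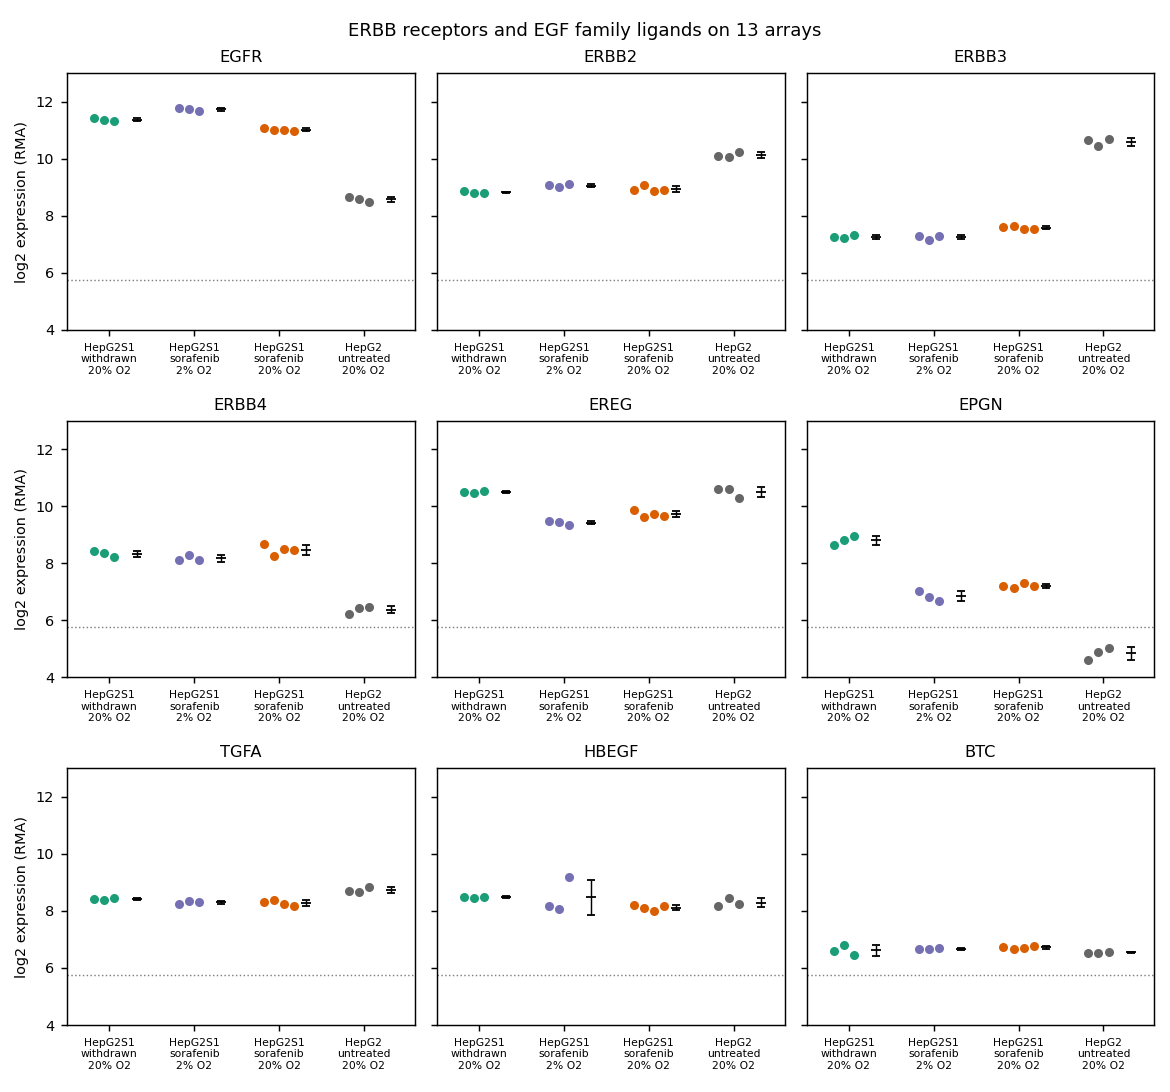
Log2 expression (RMA) of the 4 receptors and 5 measured ligands. Each point is 1 array in 1 of the 4 groups, the bar beside it is the group's mean ± SD, and the dotted line is the lower quartile of all rows at 5.76. EGFR is highest at 2% O2, EPGN is highest after withdrawal and below the line in HepG2, and 1 array at 2% O2 stands apart for HBEGF.

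The cells labelled HepG2S1 differed from HepG2 in all 4 receptors. In HepG2S1 with sorafenib at 20% O2, EGFR was 5.41-fold and ERBB4 4.27-fold higher than in HepG2, while ERBB3 was 8.06-fold and ERBB2 2.27-fold lower. Among the ligands EPGN and, by a small margin, BTC were higher, EREG and TGFA were lower, and HBEGF was not called. Of the 9 members 4 rose and 4 fell, against 30.1% of all genes that rose and 27.2% that fell in this comparison. The median size of the log2 difference was 1.19 over the 9 members and 0.24 over all genes. The members were chosen with earlier results of these data known, and all genes include genes of low signal. Nothing is thus read from these medians, here or in the later comparisons.

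EGFR had log2 values of 11.09, 11.02, 11.00 and 10.98 in HepG2S1 with sorafenib at 20% O2 and of 8.67, 8.59 and 8.50 in HepG2. The lowest HepG2S1 array was thus above the highest HepG2 array, and the difference was 2.43 ± 0.05 (limma, adjusted p = 3.67e-15). ERBB4, the receptor of neuregulins and BTC, had 8.67, 8.24, 8.50 and 8.45 in HepG2S1 and 6.23, 6.42 and 6.47 in HepG2. These arrays did not overlap either, with a difference of 2.09 ± 0.09 (limma, adjusted p = 1.78e-11).

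ERBB3 had 7.61, 7.66, 7.55 and 7.54 in HepG2S1 with sorafenib at 20% O2 and 10.66, 10.44 and 10.70 in HepG2. Every HepG2S1 array was far below every HepG2 array, and the difference was -3.01 ± 0.07 (limma, adjusted p = 3.21e-15), the largest of the 9 members. ERBB2 had 8.91, 9.08, 8.88 and 8.91 in HepG2S1 and 10.10, 10.06 and 10.23 in HepG2. It was lower on all 4 HepG2S1 arrays, with a difference of -1.19 ± 0.06 (limma, adjusted p = 1.17e-10). EGFR and ERBB4 were thus the receptors that were higher in HepG2S1 than in HepG2, and ERBB3 and ERBB2 those that were lower.

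EPGN, the gene of epigen, an EGFR ligand of low affinity, had 7.21, 7.15, 7.31 and 7.20 in HepG2S1 with sorafenib at 20% O2 and 4.61, 4.88 and 5.04 in HepG2. The HepG2 arrays were all below the lower quartile of all rows, and the difference was 2.37 ± 0.10 (limma, adjusted p = 1.52e-11). RMA pulls values this low together and the table holds no detection calls, which limits the fold that can be read here. EREG, the gene of epiregulin, had 9.86, 9.61, 9.74 and 9.67 in HepG2S1 and 10.62, 10.60 and 10.28 in HepG2, a difference of -0.78 ± 0.08 (limma, adjusted p = 3.83e-07) with no overlap. These neighbouring ligand genes thus moved in opposite directions relative to HepG2. TGFA, the classical EGFR ligand of liver regeneration, lay between 8.18 and 8.39 in HepG2S1 and between 8.67 and 8.86 in HepG2, a difference of -0.46 ± 0.06 (limma, adjusted p = 1.18e-05). BTC, which binds EGFR and ERBB4, lay between 6.66 and 6.78 in HepG2S1 and between 6.54 and 6.57 in HepG2. Its difference of 0.18 ± 0.07 passed narrowly (limma, adjusted p = 0.0429) and missed the threshold in 10 of 14 repeats of the fit with other settings or arrays left out. Among them were those that left out HepG2 replicate 1, 2 or 3 or sorafenib 20% O2 replicate 1, 3 or 4, with adjusted p of 0.0659 to 0.104 in limma. HBEGF, a ligand of EGFR and ERBB4, differed by -0.18 ± 0.19 (95% interval -0.57 to 0.22), and its arrays overlapped.

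**Figure D2:**
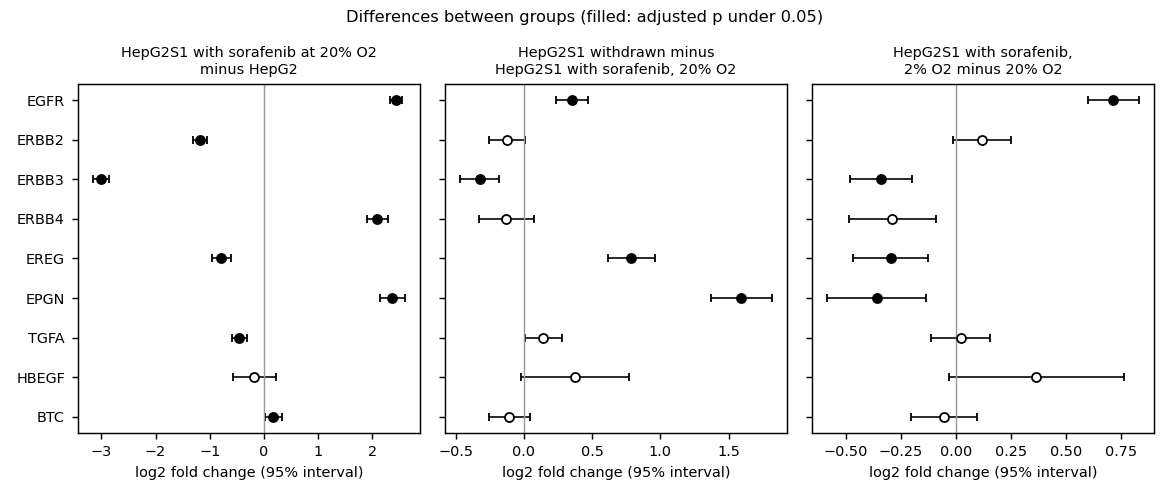
Log2 fold changes of the 9 members in 3 comparisons, each with its 95% interval on an axis of its own scale. Filled points passed an adjusted p of 0.05. EGFR is filled on the right in each panel, and EPGN and EREG lie to the right on withdrawal and to the left at 2% O2.

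The other genes of the pathway were looked at in lists of ligands, sheddases, adaptors, negative regulators and ERK cascade kinases. Against HepG2, 30.1% of all genes rose and 27.2% fell in HepG2S1 with sorafenib at 20% O2, and nothing is read from the list counts. Of the other 5 family ligands, all measured, 2 rose in HepG2S1 with sorafenib at 20% O2 and none fell. NRG4, a neuregulin that binds ERBB4, had 8.07, 7.80, 7.97 and 8.02 in HepG2S1 and 4.88, 4.50 and 4.78 in HepG2. All HepG2 arrays of NRG4 were below the lower quartile, and the difference was 3.25 ± 0.14 (limma, adjusted p = 7.74e-12). NRG1, which binds ERBB3 and ERBB4, was higher by 1.15 ± 0.08, and EGF, NRG2 and NRG3 were not called. Of 12 measured negative regulators 4 rose and 4 fell. LRIG1, a membrane protein that promotes receptor degradation, fell by 2.81 on the log2 scale, ERRFI1, an inhibitor of the EGFR kinase that the receptor's own signal induces, fell by 1.72, and CBLB, a ubiquitin ligase, rose by 1.39. Of 15 measured adaptors and signal carriers 5 rose and 7 fell, with SRC falling by 2.23, GAB1 falling by 0.94 and STAT5A rising by 0.96. Of 8 shedding genes 1 rose and 4 fell, among them RHBDF2, which serves the sheddase ADAM17, at -0.95 and NRDC, an enhancer of shedding, at 0.67. Of the 5 measured ERK cascade genes 2 rose and 1 fell, and none moved by more than 0.52.

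**Figure D3:**
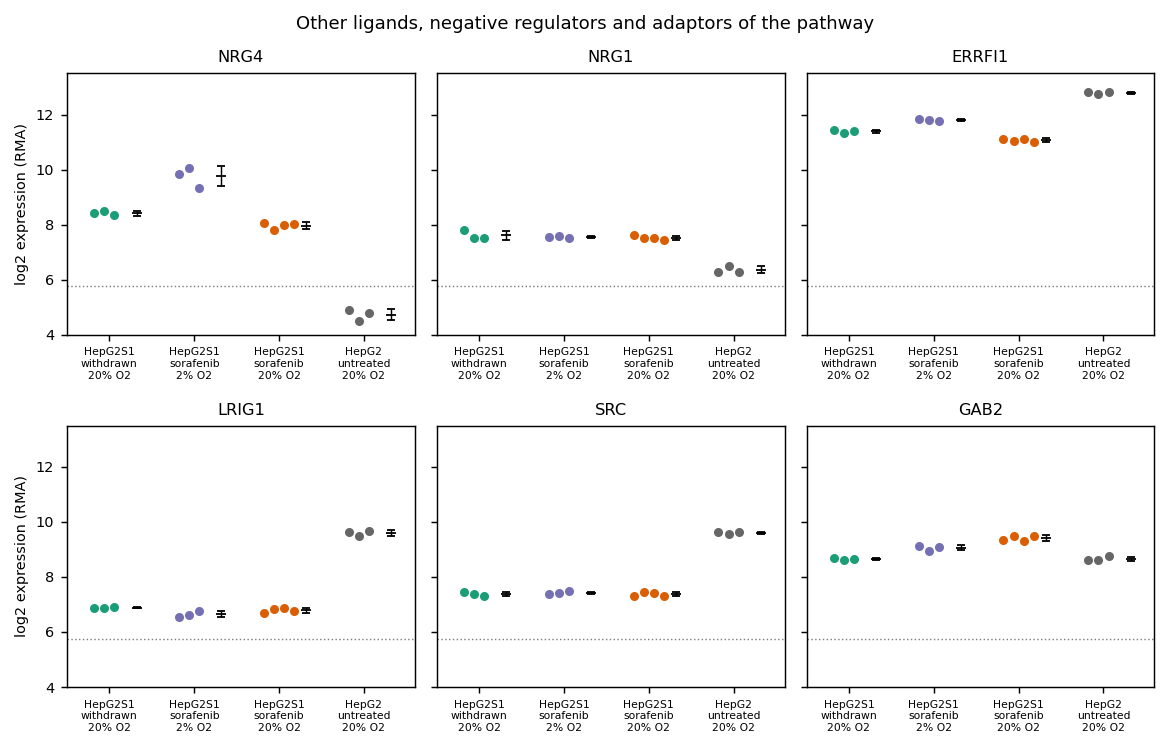
Log2 expression (RMA) of 6 pathway genes outside the 9 members. Each point is 1 array in 1 of the 4 groups, with the group's mean ± SD beside it and the lower quartile of all rows, 5.76, as a dotted line. NRG4 is highest at 2% O2 and below the line in HepG2, while LRIG1, SRC and ERRFI1 are highest in HepG2.

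Withdrawal asks what the resistant cells express once the drug is gone. After 72 h without sorafenib, EPGN was 3.02-fold and EREG 1.72-fold higher than in HepG2S1 with the drug at 20% O2, EGFR was 1.28-fold higher, and ERBB3 was 1.25-fold lower. ERBB2, ERBB4, TGFA, HBEGF and BTC were not called. Of the 9 members 3 rose and 1 fell, against 10.1% of all genes that rose and 7.90% that fell. The median size of the log2 difference was 0.32 over the members and 0.09 over all genes.

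EPGN had 8.64, 8.83 and 8.96 in withdrawn cells and 7.21, 7.15, 7.31 and 7.20 in cells with the drug. No arrays overlapped, and the difference of 1.59 ± 0.10 was the largest of the members in this comparison (limma, adjusted p = 4.54e-07). EREG had 10.50, 10.47 and 10.54 in withdrawn cells and 9.86, 9.61, 9.74 and 9.67 with the drug, a difference of 0.79 ± 0.08 without overlap (limma, adjusted p = 1.61e-05). EREG after withdrawal was close to HepG2, which had 10.62, 10.60 and 10.28, with a difference of 0.00 ± 0.09 (95% interval -0.18 to 0.18). EPGN after withdrawal was 3.97 ± 0.11 above HepG2 (limma, adjusted p = 7.38e-14), against 2.37 ± 0.10 under the drug.

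EGFR had 11.42, 11.37 and 11.32 in withdrawn cells and 11.09, 11.02, 11.00 and 10.98 with the drug. Each withdrawn array was above each array with the drug, and the difference was 0.35 ± 0.05 (limma, adjusted p = 0.000375). ERBB3 had 7.25, 7.21 and 7.33 in withdrawn cells and 7.61, 7.66, 7.55 and 7.54 with the drug, lower on every array with a difference of -0.32 ± 0.07 (limma, adjusted p = 0.00305). ERBB2 had 8.85, 8.79 and 8.82 in withdrawn cells, just below the 4 arrays with the drug, but the difference of -0.12 ± 0.06 did not pass (95% interval -0.26 to 0.01). ERBB4 differed by -0.13 ± 0.09 (95% interval -0.33 to 0.07), TGFA by 0.14 ± 0.06 (95% interval 0.01 to 0.28) and BTC by -0.11 ± 0.07 (95% interval -0.26 to 0.04).

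HBEGF had 8.50, 8.47 and 8.50 in withdrawn cells and 8.19, 8.09, 7.99 and 8.18 with the drug. The arrays did not overlap, yet the difference of 0.38 ± 0.19 was not called in the fit over 4 groups (limma, adjusted p = 0.203). The shared spread there includes the group at 2% O2, in which replicate 3 had 9.18 and the other arrays 8.18 and 8.08. Without that array in the fit, a choice made after seeing the data, the same difference passed (limma, adjusted p = 0.00258). It also passed with the 2 compared groups alone (limma, adjusted p = 0.00174).

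EPGN and EREG lie in a stretch of chromosome 4 with other ligand and chemokine genes. Of 21 protein-coding genes in order from ALB to THAP6, 20 were measured, and on withdrawal 3 rose and 1 fell. That is near the share of all genes called, 10.1% higher and 7.90% lower, and nothing is read from the count. The third that rose was RCHY1, a ubiquitin ligase gene, by 0.27, and RASSF6, a RAS-association domain gene, fell by 0.68. MTHFD2L, next to EPGN, differed by 0.00 ± 0.07, and BTC, beyond the gene not analysed here, by -0.11 ± 0.07. In HepG2S1 with sorafenib at 20% O2 against HepG2, 6 of the 20 rose and 6 fell, from -8.65 for AFP to 2.37 for EPGN. That too is near the share of all genes, 30.1% higher and 27.2% lower, and nothing is read from it.

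**Figure D4:**
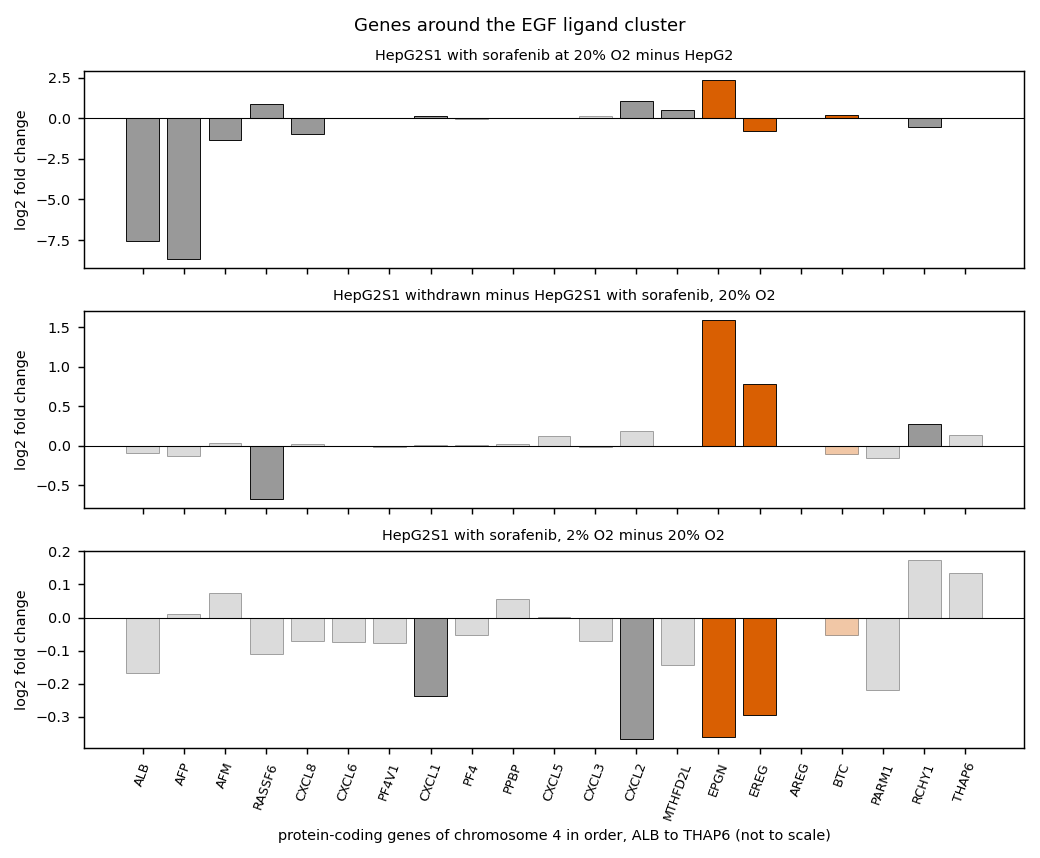
Log2 fold changes of the protein-coding genes from ALB to THAP6 in their order on chromosome 4, not to scale, in 3 comparisons with axes of their own. Orange bars are EGF family ligands, dark bars passed an adjusted p of 0.05, and AREG has no bar. On withdrawal EPGN is at 1.59 and EREG at 0.79, while RASSF6 is at -0.68 and RCHY1 at 0.27.

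Several cell type markers changed beside EPGN and EREG on withdrawal, when 10.1% of all genes rose and 7.90% fell. Of 6 squamous epithelial markers 4 were measured, of which 2 rose. KRT5, a basal keratin, rose by 0.79 ± 0.06 and SFN, the 14-3-3 sigma gene, by 0.26 ± 0.07, while KRT14 (0.31 ± 0.12) and IVL (-0.12 ± 0.13) did not pass. The summed log2 level of the 4 was 33.91 to 34.77 per array in withdrawn cells and 32.97 to 33.36 with the drug. None of the 4 was below the lower quartile in any group. Of 8 fibroblast markers 2 rose, DCN by 0.82 ± 0.07 and LUM by 0.73 ± 0.14, and the summed log2 level of the 8 was 64.5 to 65.0 in withdrawn cells and 63.3 to 64.0 with the drug. Of 5 simple epithelial markers 2 rose, KRT19 by 0.40 ± 0.08 and KRT8 by 0.23 ± 0.05. Of 9 hepatocyte markers APOB alone passed, at 0.23 ± 0.06, of 4 leukocyte markers CD68 alone, at -0.55 ± 0.06, and no endothelial marker was called. The part of these genes in the member values was not tested. Over the 10 HepG2S1 arrays, which share their line and their batches if any, the gene most like EPGN was EREG (Pearson r = 0.984), followed by KRT5 at 0.982 and MITF, a pigment cell transcription factor, at 0.974. They were taken from 997 genes whose group means spanned at least 0.5 among the HepG2S1 groups. An r this high thus largely reflects the group means, and arrays of a group do not count as independent. EREG was most like GPATCH4 (0.992), LIMA1, an actin-binding protein gene (0.991), and UTP20, a ribosome assembly gene (0.987).

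Of the other ligands NRG4 rose on withdrawal, by 0.44 ± 0.14 (limma, adjusted p = 0.0338), and 4 of 5 were not called. Over all genes 10.1% rose and 7.90% fell on withdrawal, and nothing is read from the list counts. Of 12 negative regulators 2 rose and 1 fell. ERRFI1 rose by 0.31 ± 0.05 and SOCS4, a gene of the SOCS inhibitor family, by 0.31 ± 0.07, while CBLB fell by 0.30 on the log2 scale. Of 15 adaptors GAB2, a docking protein of the PI3 kinase branch, fell by 0.77 and SOS2, a RAS activator, by 0.37, and PIK3R1, the PI3 kinase regulatory subunit, rose by 0.28. None of 8 shedding genes was called by limma in this comparison, and ADAM9 came closest with 0.21 ± 0.07 (limma, adjusted p = 0.0552). MAP2K2, a MEK kinase gene, fell by 0.23 as the only called gene of the 5 measured in the ERK cascade.

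The oxygen comparison asks how the drug-exposed cells differ at low oxygen. At 2% O2 with sorafenib, EGFR was 1.64-fold higher than at 20% O2 with sorafenib, ERBB3 was 1.27-fold lower, and EREG and EPGN were lower by 1.23-fold and 1.28-fold. ERBB2, ERBB4, TGFA, HBEGF and BTC were not called. Of the 9 members 1 rose and 3 fell, against 8.99% of all genes that rose and 6.17% that fell. The median size of the log2 difference was 0.30 over the members and 0.11 over all genes. The comparison rests on the same 4 arrays at 20% O2 with sorafenib as the withdrawal comparison. Agreement between them is thus no independent evidence. No group was kept at 2% O2 without sorafenib. Where cells at 2% O2 are set against withdrawn cells below, drug and oxygen both differ and cannot be told apart.

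EGFR had 11.78, 11.74 and 11.69 at 2% O2 and 11.09, 11.02, 11.00 and 10.98 at 20% O2. The groups were well apart, with a difference of 0.72 ± 0.05 (limma, adjusted p = 4.78e-07). The 2% O2 arrays were also above the withdrawn arrays, by 0.36 ± 0.06 (limma, adjusted p = 0.000449), so that EGFR had the order of 2% O2 with drug, withdrawn, 20% O2 with drug and HepG2, and each neighbouring pair in it differed. Over the 10 HepG2S1 arrays EGFR was most like NDRG1 (r = 0.992), IGFBP3, an IGF-binding protein gene (0.989), and ERRFI1 (0.989), among the same 997 genes. These r values again largely reflect the group means. NDRG1 is a gene known to respond to hypoxia and other stress. Its mean was 13.13 at 2% O2, 12.33 in withdrawn cells at 20% O2 and 11.63 with sorafenib at 20% O2.

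ERBB3 had 7.29, 7.17 and 7.28 at 2% O2 and 7.61, 7.66, 7.55 and 7.54 at 20% O2, lower on every array with a difference of -0.34 ± 0.07 (limma, adjusted p = 0.00303). Its level at 2% O2 was close to that after withdrawal, with a difference of -0.02 ± 0.07 (95% interval -0.17 to 0.14). ERBB3 was most like CD22 (0.961), FOSB, an AP-1 subunit gene (0.954), and ADGRG1, an adhesion receptor gene (0.948). ERBB4 had 8.12, 8.31 and 8.11 at 2% O2 and 8.67, 8.24, 8.50 and 8.45 at 20% O2. These arrays overlapped, and the difference of -0.29 ± 0.09 lay at the threshold (limma, adjusted p = 0.0504), passing it in 8 of 14 repeats, such as without sorafenib 20% O2 replicate 2 (0.0132) or sorafenib 2% O2 replicate 2 (0.0496). ERBB2 differed by 0.12 ± 0.06 (95% interval -0.01 to 0.25) with overlapping arrays.

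EREG had 9.48, 9.43 and 9.36 at 2% O2 and 9.86, 9.61, 9.74 and 9.67 at 20% O2, a difference of -0.30 ± 0.08 (limma, adjusted p = 0.0224). EPGN had 7.04, 6.83 and 6.69 at 2% O2 and 7.21, 7.15, 7.31 and 7.20 at 20% O2, a difference of -0.36 ± 0.10 (limma, adjusted p = 0.0313). Neither pair of groups overlapped, but both calls were lost when single arrays were left out. EREG missed the threshold without sorafenib 2% O2 replicate 2 or 3 (limma, adjusted p = 0.0661 and 0.0666) and without sorafenib 20% O2 replicate 1 or 3 (0.0509 and 0.0533). EPGN missed it without sorafenib 2% O2 replicate 2 or 3 (limma, adjusted p = 0.103 and 0.106), without sorafenib 20% O2 replicate 3 or 4 (0.0808 and 0.0614) and with repeated quantile normalization (0.09). EREG and EPGN thus had the order of withdrawn, 20% O2 with drug and 2% O2 within HepG2S1, with the last step the least secure. At 2% O2 EREG was -1.08 ± 0.09 and EPGN -1.95 ± 0.11 relative to withdrawn cells (limma, adjusted p = 1.07e-06 and 9.09e-08). Those groups differ in drug as well as in oxygen.

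HBEGF had 8.18, 8.08 and 9.18 at 2% O2 and 8.19, 8.09, 7.99 and 8.18 at 20% O2. The difference of 0.36 ± 0.19 (95% interval -0.03 to 0.76) came from replicate 3 and was 0.02 without it (limma, adjusted p = 0.911). On that array the gap of HBEGF to the mean of the other 2 arrays, 1.05, ranked 2 among 18377 genes, after HSPA6, a heat shock gene, with 1.69 and before SPRR2B, a squamous envelope gene, with 0.88. TGFA differed by 0.02 ± 0.06 (95% interval -0.11 to 0.16) and BTC by -0.05 ± 0.07 (95% interval -0.20 to 0.10).

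NRG4 had 9.86, 10.07 and 9.35 at 2% O2 and 8.07, 7.80, 7.97 and 8.02 at 20% O2, higher by 1.79 ± 0.14 (limma, adjusted p = 4.78e-07). Its 2% O2 arrays were above all arrays of the other 3 groups. The other 4 ligands outside the members were not called. Over all genes 8.99% rose and 6.17% fell at 2% O2 against 20% O2, and nothing is read from the list and marker counts. Of 12 negative regulators ERRFI1 alone passed, higher by 0.73 ± 0.05 with 11.85, 11.80 and 11.78 at 2% O2 and 11.12, 11.05, 11.12 and 11.00 at 20% O2. ADAM9, a sheddase, rose by 0.39 as the only one called of 8 shedding genes. Of 15 adaptors GAB1 and SOS1 rose by 0.37 and 0.27, and 2 fell, GAB2 among them by 0.35. MAP2K1, the MEK1 gene, rose by 0.45 and the other 4 measured ERK cascade genes were not called. Of 8 fibroblast markers DCN rose by 0.52 ± 0.07 and PDGFRA, below the lower quartile in every group, was at -0.24 ± 0.08 (limma, adjusted p = 0.0483). KRT18 was the called gene of 5 simple epithelial markers, at -0.26 ± 0.05, and TF that of 9 hepatocyte markers, at -0.19 ± 0.05. No squamous, endothelial or leukocyte marker was called, and the part of these genes in the member values was not tested. Of 20 measured genes around the ligand cluster 4 fell and none rose, against 6.17% of all genes that fell and 8.99% that rose. The 4 were EPGN, EREG, CXCL1 at -0.24 and CXCL2, another chemokine gene, at -0.37. The stretch was chosen around EPGN and EREG, so that nothing is read from this count.

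The withdrawn cells and the cells at 2% O2 were also set against HepG2, which shares its 3 arrays with the comparison under the drug at 20% O2. The cells at 2% O2 differ from HepG2 in line, drug and oxygen at once, and from withdrawn cells in drug and oxygen. Which of these goes with a difference cannot be told apart. In withdrawn cells EGFR was 2.79 ± 0.06 and ERBB4 1.97 ± 0.10 above HepG2, and ERBB3 was -3.33 ± 0.07 and ERBB2 -1.31 ± 0.07 relative to it. With EPGN, 3 members rose, and with TGFA, 3 fell, against 29.6% of all genes that rose and 27.0% that fell. At 2% O2 with sorafenib EGFR was 3.15 ± 0.06 and ERBB4 1.81 ± 0.10 above HepG2, ERBB3 was -3.35 ± 0.07 and ERBB2 -1.07 ± 0.07 relative to it. There EPGN was 2.01 ± 0.11 above HepG2 and EREG -1.08 ± 0.09 and TGFA -0.44 ± 0.07 relative to it, which made 3 members that rose and 4 that fell, against 30.6% of all genes in each direction. Between 2% O2 with sorafenib and withdrawn cells 2 members rose and 2 fell, against 10.8% and 7.73% of all genes. These were EGFR and ERBB2, ERBB2 by 0.24 ± 0.07 with a call lost without sorafenib 2% O2 replicate 1 or 3 or without withdrawn replicate 2 or 3, and EREG and EPGN on the low side.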

How the data were processed

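Each of 13 flasks gave RNA to 1 Affymetrix whole-transcript array. Expression values are log2 numbers as deposited by the authors, who used RMA (background correction, quantile normalization and probe summary) per the submitters' processing notes. That they are on a log2 scale follows from their range, 2.68 to 14.5, and no version of RMA is stated. No scan date, batch or detection call comes with the table, and the number of arrays limits the precision.

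Of 28926 rows, 19310 had 1 gene symbol, 1752 several and 7864 none. Rows with 1 symbol were used, with symbols updated by Entrez ID for 19279 rows through RefSeq's GRCh38.p14 gene table. For 685 genes with several rows the highest mean decided, which gave 18377 genes. All 4 groups entered 1 fit in limma 3.58.1 (lmFit and eBayes, R 4.3.3), and p-values were adjusted over all genes of a comparison by Benjamini-Hochberg, with calls at an adjusted p under 0.05. The fit was tested on simulated data. The labels do not say whether flasks were separate cultures. The p-values thus rest on differences among these flasks, which may be technical.

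The members and lists were chosen with earlier results of these data known. The text names each measured member, up to 3 called genes of a pathway list with the largest change in a comparison, the 3 genes most like a member called within HepG2S1 (Pearson's r, without Y-chromosome genes) and genes around the ligand cluster. Cell type markers, genes that lead on 1 array, genes close to the threshold and motifs were picked after their values were seen. RefSeq promoters were matched by symbol for 8 of 9 members. The alternatives were array weights, trended and robust eBayes, the mean over a gene's rows, the 2 groups compared alone, scaling to the 75th percentile, a further quantile normalization, genes at or above the 33rd percentile only, a threshold of 0.01 and each array left out in turn. Figures come from matplotlib 3.10.9 (Python 3.11.15).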

Additional observations from a re-analysis of the deposited data

Results flagged for a closer look

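Among the 4 arrays of HepG2S1 with sorafenib at 20% O2, replicate 2 stood apart for ERBB2, at 9.08 against 8.88 to 8.91 on the other 3. The gap was 0.837 of the group's range. Such a test flags about 1 in 20 groups by chance, and it was run on 31 genes, the members and named pathway genes, of which 1 was flagged. Against HepG2 the log2 difference of ERBB2 was -1.23 to -1.13 over 15 repeats with other settings or arrays left out.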

How the results depend on the processing

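Over 54 differences of the 9 members in 6 comparisons, 744 repeats with another setting or with an array left out gave the same direction and side of the threshold 685 times. A call was lost in 23 repeats and gained in 15. In 21 repeats a difference that was not called changed sign. The cause was not tested. Called members at 2% O2 against 20% O2 numbered 4, with 2 at an adjusted p of 0.01 and 2 to 5 on leaving out single arrays. On leaving out arrays the other comparisons had 7 to 8 called members (HepG2S1 with sorafenib at 20% O2 against HepG2), 4 to 5 (withdrawal), 6 to 7 (withdrawn against HepG2), 3 to 4 (2% O2 against withdrawn) and 7 (2% O2 against HepG2).

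At 2% O2 against 20% O2, TGFA was -0.0375 with 75th percentile scaling, -0.0074 with quantile normalization and -0.0126 to 0.0583 without single arrays, and BTC was 0.0202 with quantile normalization. In withdrawn cells against HepG2, EREG was -0.0733 with 75th percentile scaling, -0.0484 with quantile normalization, -0.0369 with array weights and -0.107 to 0.0621 without single arrays, and BTC was -0.0066 with 75th percentile scaling and -0.0255 to 0.158 without single arrays. At 2% O2 against withdrawn cells, ERBB3 was 0.0028 with quantile normalization, 0.0119 with array weights and -0.0436 to 0.0242 without single arrays. BTC was -0.01 with array weights and -0.0355 to 0.148 without single arrays there, and HBEGF was -0.36 to 0.19, with -0.36 called without sorafenib 2% O2 replicate 3 (limma, adjusted p = 0.0107). At 2% O2 against HepG2, HBEGF was -0.16 to 0.39 without single arrays. Without that replicate in the shared fit, a choice made after seeing the data, HBEGF was also called in withdrawn cells against HepG2 at 0.20 (limma, adjusted p = 0.0415).

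Counts over all genes moved more. On withdrawal 3303 genes were called, with 1970 at an adjusted p of 0.01 and 5231 with array weights. At 2% O2 against 20% O2 it was 2786, with 1298, 4568 and 1598 to 2963 without single arrays, and at 2% O2 against withdrawn cells 3412, with 2049 and 5178. EPGN and BTC have no value with the filter at the 33rd percentile. No paired analysis was possible because the flasks carry running numbers that no groups share. Background correction and a slide block were not run. No signal over background is given, which limits EPGN and NRG4 in HepG2.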
